A study of Mus musculus with 14 samples.

Results

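The 70 protein-coding genes of the Pax, Nkx, sine oculis (such as Six3 and Six4), Lhx, Dlx, Irx, Emx, Otx, Gbx, Msx, Lmx, Meis, Pitx, Barhl and Evx families were followed in ChIP-seq lists of 2 chromatin proteins, Smarca4 and Ezh2, and 3 histone marks, H3K4me3, H3K27me3 and H3K27ac. They were chosen by symbol alone, from these 15 family names followed by a digit, among the 21938 protein-coding genes of the mouse annotation (GENCODE M21, GRCm38/mm10). A gene's region was the gene body together with the 1 kb before its transcription start (TSS), and this is what a region means below unless a window around the TSS is named. Nkx was the largest family with 14 genes, followed by Pax with 9 and Lhx with 8, and Emx, Otx, Gbx, Lmx, Barhl and Evx had 2 genes each. The word homeobox covers most but not all of them, since Pax1 and Pax9 carry a paired domain without a homeodomain, and Pax2, Pax5 and Pax8 keep only part of one.

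The cells were 81K1 mouse embryonic stem cells (mESC), 1 clone derived from the OG2 line, which carries an shRNA against Smarcb1 that doxycycline switches on. Smarcb1 is a core subunit of the BAF chromatin remodelling complex, whose ATPase in stem cells is Smarca4. Control cells were left untreated and Smarcb1-kd cells received 1 µg/ml doxycycline for 72 h, so that both conditions carry the shRNA construct and differ in doxycycline as well as in Smarcb1. Doxycycline without the shRNA was not analysed here. There was 1 library per antibody and condition, 10 in all, besides 4 inputs without a list of regions. No spread between replicates could therefore be given and no test between the conditions was made. All differences below are between 2 libraries.

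Homeodomain and paired-domain factors are DNA-binding proteins that set cell identity along the body axis, in the brain, eye, heart, limbs and endocrine organs. In embryonic stem cells most of them are silent and are textbook targets of the Polycomb repressive complexes. Ezh2 is the catalytic subunit of Polycomb repressive complex 2 and writes H3K27me3, a mark of repressed chromatin. H3K4me3 marks promoters and H3K27ac marks active promoters and enhancers. A promoter that carries H3K4me3 together with H3K27me3 is called bivalent, a state known from developmental genes in stem cells.

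Smarca4 and Ezh2 were given as MACS2 peaks with a score, and the 3 histone marks as SICER islands with a p-value, printed here as -log10 p. The lists held between 5364 (Ezh2 kd) and 79014 (Smarca4 control) regions. They carry no read counts, so the depth of each library is unknown, and a gene without a called region is not shown to lack the protein or the mark. Scores and p-values are not scaled between libraries. ChIP-seq on many cells cannot tell fewer cells with a mark from less of the mark in each cell, nor show that 2 marks called at 1 promoter sat on the same DNA molecule. Smarca4 and H3K27me3 were processed by a service company and the other antibodies in the authors' laboratory, so that differences between these groups of antibodies cannot be told apart from this. Checked against marker genes, the lists had H3K27ac within 1 kb of the TSS of 5 of 8 stem cell marker genes in control and 7 of 8 after kd, against 0 of 6 fibroblast and 0 of 4 trophoblast markers in each condition and 0 and 1 of 4 neural progenitor markers. Ezh2 was called at 0 of the 8 stem cell markers, but H3K27me3 at 2 in control and 1 after kd. Esrrb had H3K27me3 without Smarca4, H3K27ac or H3K4me3 in both conditions, and Klf4 had H3K27me3 in control alone. H3K4me3 was called at 7 of 8 stem cell markers in each condition and at 1 and 3 of 6 fibroblast markers. It was also called at 3 of 4 trophoblast and 2 of 4 neural progenitor markers in each condition. Smarcb1 itself had Smarca4, H3K27ac and H3K4me3 at its TSS in both conditions, which does not measure the knockdown, since the shRNA acts on the mRNA.

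The promoters of 4 genes are shown because they stand for the 4 patterns described below, namely a promoter without Ezh2 or H3K27me3 (Six4), one with H3K27me3 and H3K4me3 but without Ezh2 (Gbx2, after kd with H3K27me3 at its upstream edge only), one under Ezh2, H3K27me3 and H3K4me3 in both conditions (Nkx1-1), and one where H3K4me3 was called after kd alone (Barhl1). The sequences are those of RefSeq on GRCm38.p6, from up to 250 bases upstream to the base before the start, with bases that GENCODE places inside the gene left out. All 4 lie on the minus strand and are written 5′ to 3′ in the direction of transcription, at chr12:73113457-73113675 (Six4), chr1:89931180-89931426 (Gbx2), chr5:33434091-33434340 (Nkx1-1) and chr2:28916669-28916918 (Barhl1). Capitals mark the dinucleotide CG, read in this direction, which reads the same on the other strand.
Six4: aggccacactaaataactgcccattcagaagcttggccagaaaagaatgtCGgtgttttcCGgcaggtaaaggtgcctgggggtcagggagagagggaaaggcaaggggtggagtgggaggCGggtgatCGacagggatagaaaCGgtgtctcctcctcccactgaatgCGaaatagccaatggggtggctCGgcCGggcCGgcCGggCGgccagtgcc
Gbx2: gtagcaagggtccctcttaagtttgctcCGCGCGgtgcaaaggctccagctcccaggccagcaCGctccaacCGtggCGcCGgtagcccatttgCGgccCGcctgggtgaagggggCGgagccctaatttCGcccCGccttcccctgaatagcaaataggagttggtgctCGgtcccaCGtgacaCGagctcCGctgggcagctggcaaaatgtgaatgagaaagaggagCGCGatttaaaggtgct
Nkx1-1: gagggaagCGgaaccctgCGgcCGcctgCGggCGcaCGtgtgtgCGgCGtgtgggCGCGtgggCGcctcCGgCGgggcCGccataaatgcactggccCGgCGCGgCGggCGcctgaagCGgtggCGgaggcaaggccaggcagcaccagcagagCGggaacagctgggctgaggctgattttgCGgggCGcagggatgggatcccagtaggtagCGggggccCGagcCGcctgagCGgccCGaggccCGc
Barhl1: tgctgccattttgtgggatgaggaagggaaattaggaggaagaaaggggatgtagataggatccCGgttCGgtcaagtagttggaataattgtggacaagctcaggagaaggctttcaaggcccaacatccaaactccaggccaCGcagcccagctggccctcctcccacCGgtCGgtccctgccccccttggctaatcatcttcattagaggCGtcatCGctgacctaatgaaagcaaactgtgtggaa

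These windows held 11 CG dinucleotides in Six4, 18 in Gbx2, 30 in Nkx1-1 and 7 in Barhl1. RefSeq promoters were matched for 52 of the 70 genes. Over the 250 bases upstream of their starts the number of CG ranged from 4 to 36 with a median of 14.5, and over all 32851 promoters of the table from 0 to 56 with a median of 6.0. Every matched promoter held at least 1 CG, as did 92.1% of all promoters.

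The homeobox families differed from the average gene most in H3K27me3 and Ezh2. An H3K27me3 island overlapped the region of all 70 genes in control (100%, Wilson 95% interval 94.8 to 100%) and of 69 after kd (98.6%, 92.3 to 99.7%), against 42.4% and 35.6% of all protein-coding genes. Ezh2 was called in 63 (90.0%, 80.8 to 95.1%) and 66 (94.3%, 86.2 to 97.8%) of the 70, against 12.6% and 15.4% of all genes. A Smarca4 peak was found in 69 of the 70 in each condition (98.6%), where the background was 70.3% in control and 71.7% after kd. H3K4me3 was called in 57 genes in control (81.4%, 70.8 to 88.8%) and 68 after kd (97.1%, 90.2 to 99.2%), with a background of 63.4% and 68.1%. H3K27ac was the exception and lay below the background, with 5 genes in control (7.14%, 3.09 to 15.7%) and 9 after kd (12.9%, 6.91 to 22.7%) against 32.4% and 48.2% of all genes. With lists of equal length the H3K27ac count was 5 genes in each condition, and under a stricter threshold 2 in control and 4 after kd. The intervals cover counting error only. The median region of these genes was 8136 bp long and that of all protein-coding genes 18425 bp.

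**Figure D1:**
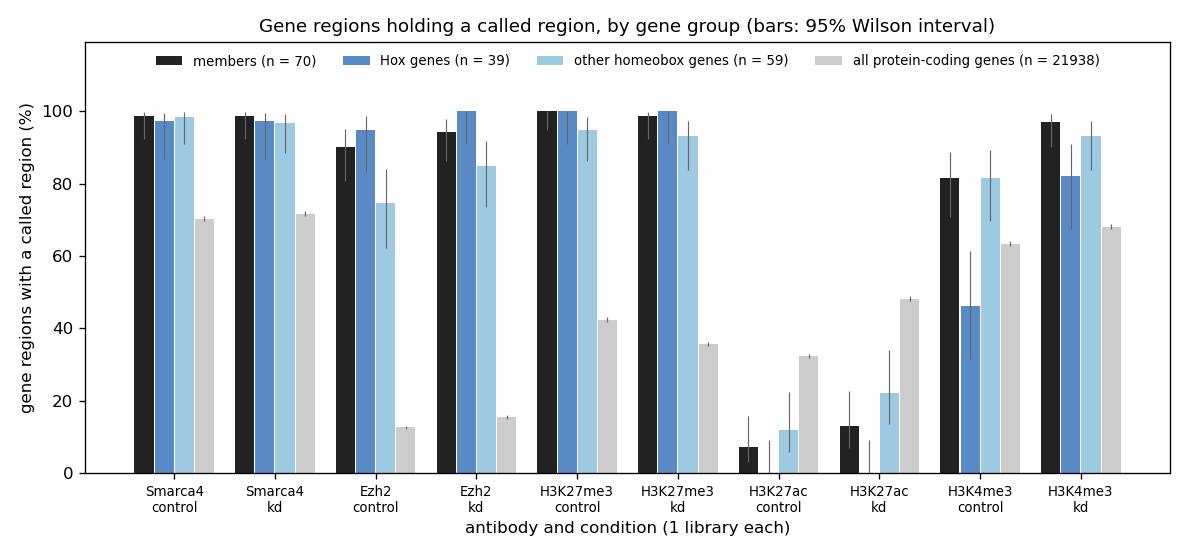
Share of gene regions with a called region (vertical axis, %) for each antibody and condition, for the 70 homeobox family genes (black), 39 Hox genes (dark blue), 59 other homeobox genes (light blue) and all 21938 protein-coding genes (grey), with 1 library per pair of bars and lines for the 95% Wilson interval. H3K27me3 covers 70 of 70 genes in control and 69 after kd, Ezh2 is called in 90.0% and 94.3% of them against 12.6% and 15.4% of all genes, and H3K27ac is the only antibody with a lower share than that of all genes.

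H3K27me3 did not only touch these genes but mostly spanned them. The whole region lay inside islands for 48 of the 70 genes in control (68.6%) and 46 after kd (65.7%), against 6.84% and 4.79% of all protein-coding genes. Islands on the 70 genes numbered 102 in control and 89 after kd, at 68 separate loci in each list, since Dlx1 with Dlx2 and Dlx5 with Dlx6 lie as neighbours under shared islands and are not independent. Taking the widest island of each gene, the median width came to 32000 bp (control) and 31800 bp (kd). All members of the Dlx, Irx, Emx, Otx, Msx, Pitx, Barhl and Evx families were covered to 100% in both lists. Some long genes were covered in small part only, such as Meis1, a Hox cofactor of the TALE class, with 14.8% and 12.8% of 140169 bp.

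The widest island over one of these genes was that of Evx1 (chr6:52313498-52318378), a regulator of the primitive streak and of spinal interneurons that lies beside the HoxA cluster. It measured 188600 bp in control, rank 3 of its list, and also held 11 Hox genes. After kd the island on Evx1 measured 42400 bp and held 0 Hox genes, while Evx1 itself stayed inside it over its whole length. The Hox genes kept the mark in other islands, since all 39 Hox genes of the genome were called after kd and 99.8% of their bases were covered (100% in control). Evx2, beside the HoxD cluster, lay under an island of 138000 bp in control and 135200 bp after kd, with 9 Hox genes in each. Lmx1b, which patterns the dorsal limb, was covered whole by islands of 110400 and 101400 bp. The third widest after kd was that of Nkx1-1 at 64600 bp, where the control island had 68200 bp.

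Between the conditions, 45 of the 69 genes called in both lists had exactly the same number of bases under H3K27me3, 16 had fewer after kd (23.2%) and 8 had more. Of all protein-coding genes called in both, 55.7% had fewer bases after kd. The shares are not comparable as they stand, since 44 of the 45 equal genes were wholly covered in both lists and an island that shrinks beyond the gene is not seen, as at Barhl1 (26000 bp wide in control and 20400 bp after kd). Wholly covered in both were 63.8% of the homeobox family genes called in both and 12.2% of all protein-coding genes called in both. Without them, 16 of 25 homeobox family genes had fewer bases after kd (64.0%), close to the 63.5% of all protein-coding genes. Over all bases of the 70 regions the covered share was 64.9% in control and 56.2% after kd, against 9.48% and 6.75% over all protein-coding genes. The regions of Pax5 and Pax7 account for 94400 of the 158305 fewer bases (59.6%). In percentage points, the genes with fewer covered bases were led by Meis3, a hindbrain regulator, at 88.7% in control and 37.2% after kd. Gbx2, which positions the midbrain-hindbrain boundary and is also known from the LIF pathway of stem cells, went from 100% under 1 island to 52.7% under 2. Pax7, a factor of muscle stem cells and neural crest, was covered to 77.1% and 42.2%.

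In Pax5, the B-cell factor, 59.8% of the 186731 bp lay in 9 islands in control and 27.5% in 3 islands after kd. Lhx8, a factor of cholinergic forebrain neurons, had 73.6% and 49.9%. The opposite direction was smaller in percentage points. Lhx9, a gonad and limb factor, was covered to 74.5% in control and 92.6% after kd. Pax9, which acts in teeth and thymus, had 55.5% and 68.2%, Pax6, the regulator of eye and forebrain, 84.5% and 90.6%, and Pax8, a thyroid and kidney factor, 51.4% and 57.5%. Nkx6-3, a factor of the stomach, had 97.8% and 100%.

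Six4 was the single gene of the 70 with H3K27me3 in control alone (background 9.74%), and 0 genes had it after kd alone (background 2.95%). Six4 (chr12:73099609-73113456) encodes a homeodomain protein of muscle and placodes. Its control islands measured 2200 bp, inside the gene 456 bp from the TSS, with -log10 p of 11.9, and 6200 bp, upstream at a distance of 545 bp, with -log10 p of 29.1. Ordered by p-value they ranked 20430 and 11331 of 22909 islands. The printed promoter lies in the gap between them and carried Smarca4, H3K27ac and H3K4me3 in both conditions. Six4 was still called in control alone under the stricter threshold on p, with lists of equal length and without repeat-masked regions.

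**Figure D2:**
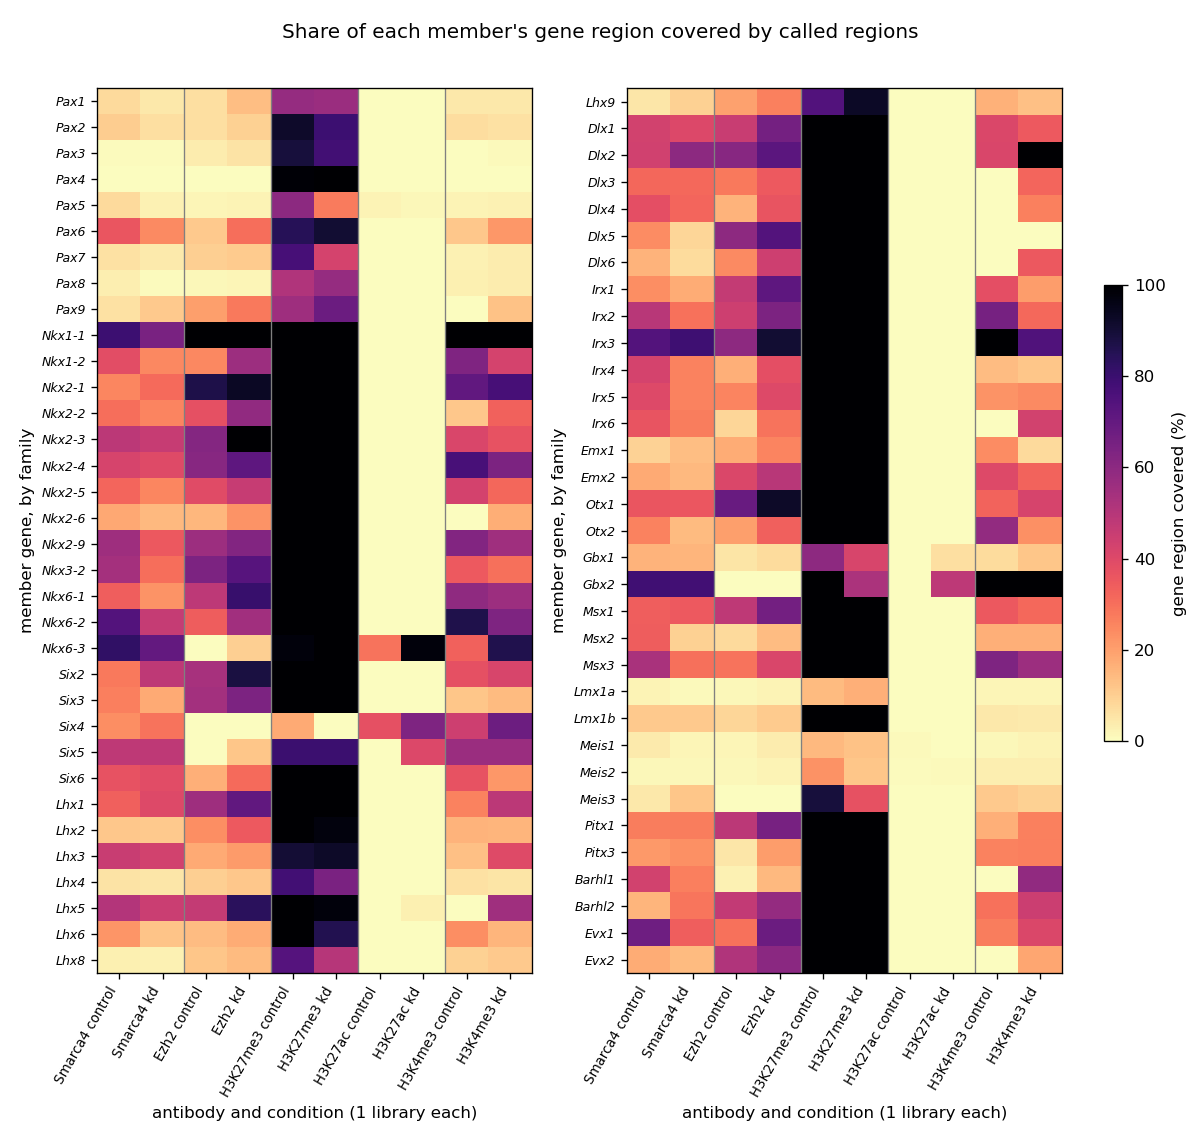
Share of each gene region covered by called regions (colour, 0 to 100%, pale to black) for 67 of the 70 genes in rows, ordered by family, and the 5 antibodies in control and kd in columns, with 1 library per column. The H3K27me3 columns are at or near 100% for most rows, with Six4 at 17.9% in control and 0% after kd, and the H3K27ac columns hold colour in Six4, Six5, Nkx6-3, Gbx1 and Gbx2 and only traces elsewhere.

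Ezh2 peaks in the 70 regions numbered 209 in control and 205 after kd, and all of them lay in H3K27me3 islands of the same condition. Most of the 70 regions lay wholly inside such islands, and the same share over all genes was not computed. The bases under Ezh2 were more after kd in 62 of the 63 genes called in both conditions (98.4%) and fewer in 0, while Nkx1-1 was covered to 100% in both. This direction was shared by 93.9% of all protein-coding genes called in both lists, so it belongs to the Ezh2 lists as a whole. Median coverage of these 63 genes was 24.7% in control and 40.1% after kd. The median Ezh2 peak spanned 759 bp in the control list and 1232 bp in the kd list, against 440 and 795 bp over the peaks of all protein-coding gene regions. The count of genes with more bases was 62 without repeat-masked peaks, 60 with a score of at least 50 and 60 with lists cut to equal length.

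Among the peaks of these genes, 8 of 209 in control (3.83%) and 50 of 205 after kd (24.4%) had no overlapping peak in the other condition. The same shares over all protein-coding gene regions were 31.7% in control and 47.7% after kd. Of these background peaks, 1140 of 4026 in control and 58 of 4384 after kd were at least 50% repeat-masked. In the 70 genes this held for 3 of 209 and 1 of 205 peaks, so the control background differs in this from the 70 genes. The control backgrounds in this paragraph were not recomputed without such peaks. Ezh2 was called in control alone in 0 of the 70 genes (background 3.19%) and after kd alone in 3 (background 5.96%), among them Nkx6-3 and Six5. Only 7 of the 70 lacked Ezh2 in control, so these were 3 of 7 (42.9%), against 6.82% of all protein-coding genes without Ezh2 in control. The same count was 6 of 15 in other homeobox genes (40.0%) and 2 of 2 in Hox genes. All 70 genes carried H3K27me3 in control, and the share among protein-coding genes with this mark was not computed. With lists of equal length, 5 genes had Ezh2 after kd alone (background 7.21%). In Six5 the score was 78, at 194 bp from the TSS, and in Nkx6-3 it was 163, at 4036 bp inside the gene. These scores were well below the median of the strongest peak per gene, which was 300 in control (35 to 1121) and 524 after kd (37 to 1131) for the homeobox families, against 91 and 180 over all protein-coding genes.

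The highest Ezh2 score in control was on Emx2 (chr19:59458372-59465357), a regulator of the cerebral cortex and the urogenital tract, with 1121, rank 6 of the whole list, in a peak of 3269 bp. After kd the strongest Emx2 peak scored 544. Lhx6, a factor of cortical interneurons, had 783 and 772. Nkx6-1, of ventral neural tube and pancreatic beta cells, had 664 and 920. After kd the highest score among these genes was on Irx3, a neural tube and limb factor, with 1131 (583 in control). Its peak of 8076 bp had rank 39 of the whole list. Lhx2, which acts in forebrain and eye, and Nkx1-1 followed with 1105 each, against 620 and 485 in control. The scores of the 2 lists are set side by side only, since they are not on a common scale.

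Ezh2 was called in neither condition in 4 genes, Six4, Gbx2, Meis3 and Pax4. Pax4, a pancreatic beta cell factor named here after its values were seen, was called for H3K27me3 alone, over 99.2% of its region in control and 100% after kd. Gbx2 and Meis3 also carried H3K27me3 without an Ezh2 peak. Among all 70 genes, these 2 had the largest difference of H3K27me3 coverage in percentage points, with 52.7% and 37.2% after kd. Six4 went from 17.9% to 0%, and the number of fewer bases was larger in Pax5 and Pax7.

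Smarca4 lay on the same genes, often beside Ezh2. In control 346 and after kd 329 Smarca4 peaks overlapped the 70 regions, and 95.1% and 95.4% of them lay in H3K27me3 islands. An Ezh2 peak was met by 56.1% of these Smarca4 peaks in control and by 78.4% after kd, when the Ezh2 peaks were wider. Conversely 74.6% and 80.0% of the Ezh2 peaks touched a Smarca4 peak. None of these overlap shares was computed over all protein-coding genes, so they have no background. Most of the 70 regions lay wholly inside H3K27me3 islands, so a high share of peaks in islands follows in part from the regions themselves. Smarca4 was called in control alone in 0 genes (background 2.45%) and after kd alone in 0 genes (background 3.85%), and Pax4 was the one gene without a peak in either list. Within 1 kb of the TSS, 64 of the 70 genes had a peak in each condition (91.4%), against 62.5% of all protein-coding genes in control and 63.5% after kd.

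The bases under Smarca4 were fewer after kd in 48 of 69 genes (69.6%), against 59.3% of all protein-coding genes called in both lists, and median coverage was 27.8% and 25.3%. Of the peaks, 105 of 346 in control (30.3%, background 41.3%) and 68 of 329 after kd (20.7%, background 27.6%) had no overlap in the other list. Both shares lay below the background. The spread between genes was large, since Pax6 had 36.2% of its region under 16 peaks in control and 24.5% under 15 after kd, whereas Meis3 had 4.38% and 11.8%. In Evx1 the covered share was 67.5% and 33.9%. Gbx2 had 78.7% and 78.5%, among the highest of all 70 in both lists.

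The strongest Smarca4 peak of a gene had a median score of 181 in control (63 to 534) and 135 after kd (29 to 1072), while the median over all protein-coding genes was 171 in both. In control the highest scores among the homeobox families were on Six5 with 534, Pax5 with 505 and Gbx2 with 493. After kd the same genes had 359, 1072 and 382. The Pax5 peak of 1821 bp after kd (chr4:44703080-44704900) ranked 23 in its list and overlapped the control peak of 1496 bp. Barhl1, a factor of hair cells and cerebellar granule neurons, followed after kd with 571 (389 in control), and Six6, of eye and pituitary, with 428 (261 in control).

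**Figure D3:**
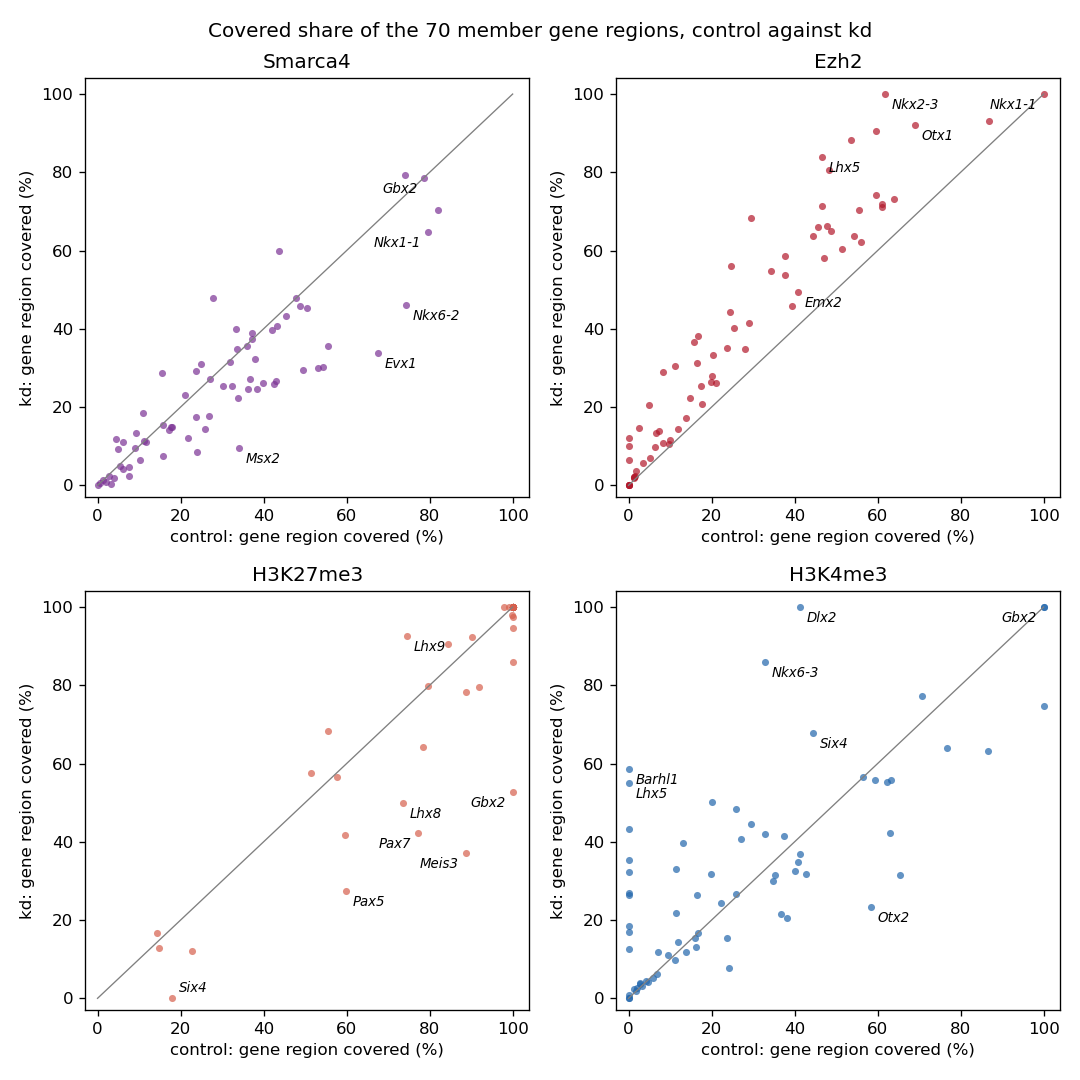
Covered share of each of the 70 gene regions in control (horizontal axis, %) and after kd (vertical axis, %) for Smarca4, Ezh2, H3K27me3 and H3K4me3, with 1 point per gene and equality as a grey line. Ezh2 points lie above the line in 62 of 63 genes called in both, H3K27me3 points sit at 100% for most genes with Meis3, Gbx2, Pax7 and Pax5 below the line, and H3K4me3 has a column of points at 0% in control that are called after kd.

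H3K4me3 was the mark whose calls differed between conditions in the largest number of these genes. It was called after kd alone in 11 genes (15.7%, 9.01 to 26.0%, background 5.49%) and in control alone in 0 genes (background 0.825%). Only 13 of the 70 lacked H3K4me3 in control, so that 11 of the 13 genes that could appear did appear (84.6%). Of all protein-coding genes without H3K4me3 in control, 1205 of 8019 did so (15%). Restricted to those that carried H3K27me3 in control, as all 13 did, this was 925 of 2947 (31.4%). The same count was 14 of 21 in Hox genes (66.7%) and 7 of 11 in other homeobox genes (63.6%), so that the homeobox families were not alone in it. No test of these differences was made.

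The kd list of H3K4me3 was the longer one. With both lists cut to equal length, 11 genes were again called after kd alone, and they were the same 11 (background 3.53%). They also stayed the same without repeat-masked islands. Under the stricter threshold of -log10 p of at least 20, 19 genes were called after kd alone (background 6.43%). The new islands were narrow, between 800 and 4000 bp. The strongest was in Evx2, 2757 bp from the TSS inside the gene, with -log10 p of 105 and a width of 1400 bp.

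In Barhl1 (chr2:28907679-28916668) 3 islands together covered 58.7% of the region after kd, and that of 3200 bp over the TSS and the printed promoter had -log10 p of 60.7. Dlx6, of the lower jaw and forebrain, had 1 island of 2200 bp over its TSS (59.5), and Irx6 had 2, the stronger over its TSS (59.0). In Pax9 the island (43.6) lay at an inner transcript start, 3234 bp from the TSS. Dlx3 (34.8) and Dlx4 (25.1) had theirs over the TSS, whereas those of Pax3, a neural crest and muscle factor (29.3), and Nkx2-6, of the pharyngeal region (24.3), lay 7134 and 2799 bp away from it. Lhx5, of forebrain and hippocampus, was the weakest at 20.3, with 55.1% of its region covered by 2 islands.

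All 11 genes kept an H3K27me3 island after kd. The 2 genes without H3K4me3 in either condition were Pax4 and Dlx5, a factor of jaw, ear and forebrain interneurons. Dlx5 was covered whole by H3K27me3 in both lists, and Ezh2 covered 59.6% of it in control and 74.1% after kd. Its neighbour Dlx6, under the same H3K27me3 island, belonged to the genes with H3K4me3 after kd alone. Among the 57 genes called in both conditions, 25 had more bases under H3K4me3 after kd (43.9%, background 38.4%) and 27 fewer, so that no common direction was seen where the mark was already called. Otx2, an anterior brain factor that is also made in the early epiblast, had 58.3% in control and 23.3% after kd, whereas Nkx2-2, of the ventral neural tube, had 11.5% and 33.0%.

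Counted within 1 kb of the TSS, 45 of the 70 genes had both H3K4me3 and H3K27me3 in control (64.3%, 52.6 to 74.5%) and 56 after kd (80.0%, 69.2 to 87.7%), against 21.2% and 21.6% of all protein-coding genes. H3K27me3 without H3K4me3 was found at 25 promoters in control (35.7%) and 13 after kd (18.6%), against 13.7% and 7.60% of all protein-coding genes, so the share was lower after kd in both. H3K4me3 without H3K27me3 was found at 0 in control and at 1, Six4, after kd (1.43%), against 35.3% and 38.8% of all. Of 39 Hox genes 13 and 21 had both marks, and of 59 other homeobox genes 36 and 42, so both lists had more such promoters after kd as well. When the start of any protein-coding transcript of a gene was allowed, 52 and 63 of the 70 genes had both marks. This count was not made over all protein-coding genes, so the 21.2% and 21.6% are not its background. Pax6 and Nkx2-5, the cardiac factor, were among those added in each condition.

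By family, H3K4me3 within 1 kb of the TSS was called in 5 of 6 Irx genes in control and 6 after kd, in 2 and 5 of 6 Dlx genes and in 3 and 4 of 9 Pax genes, the family with the smallest share after kd among those of over 2 genes. The Nkx family had 10 and 11 of 14, Lhx 5 and 6 of 8, and the sine oculis family 4 and 5 of 6. These counts use 1 start per gene, and the Pax share depends on it. With any protein-coding transcript start, Pax1, Pax5 and Pax6 also had H3K4me3 with H3K27me3 in control, and Pax1, Pax6 and Pax9 after kd. Ezh2 at the TSS was called in 8 of 9 Pax, 6 of 6 Dlx and 6 of 6 Irx genes in both conditions, and in 11 and 12 of the 14 Nkx genes. In this window 7.13% of all protein-coding genes had Ezh2 in control and 12.6% after kd, and 56.6% and 60.4% had H3K4me3.

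H3K27ac was rare in these genes, and several of its calls lay near the authors' threshold of -log10 p of 5. It was called in control alone in 1 gene, Meis1 (background 3.06%), by an island of 1200 bp with -log10 p of 9.62 that lay 73185 bp from the TSS inside the gene. It was called after kd alone in 5 genes, among them Gbx1, Gbx2, Lhx5 and Six5 (7.14%, background 18.9%), which is a smaller share than over all genes. Of these, Gbx1, a spinal cord factor, had -log10 p of 19.7 in an island of 1600 bp over the TSS. Those of Six5 (7.05), Gbx2 (5.24 and 6.34) and Lhx5 (5.14) were weak. With lists of equal length 2 of the 5 remained, Gbx1 among them.

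The largest number of H3K27ac islands was on Six4, with 3 in each list covering 37.7% of the region in control and 63.6% after kd. The control islands were 1000 to 3000 bp wide with -log10 p between 5.15 and 10.8. After kd the island over the TSS was 6800 bp wide with -log10 p of 56.0, and one of 19400 bp that reached the end of the gene from outside had 200, rank 112 of the list. H3K4me3 on Six4 covered 44.5% in control and 67.7% after kd. Nkx6-3 had an island of 12200 bp in control (6.69) and of 18400 bp after kd (32.9), which covered 29.2% and 98.0% of its region, while H3K27me3 covered 97.8% and 100% of it.

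Within 1 kb of the TSS H3K27ac was called at 1 gene in control, Six4, and at 6 after kd, Six4, Nkx6-3, Gbx1, Gbx2, Lhx5 and Six5. At 5 of these 6 promoters H3K27me3 was called as well after kd (7.14% of the 70, and 1.43% in control), against 1.5% of all protein-coding genes in control and 4.34% after kd. Of all protein-coding genes, 16.0% in control and 30.9% after kd had H3K27ac in this window. No Hox gene of the 39 had an H3K27ac island in either condition. Away from the TSS, Pax5 had 1 island in each list (-log10 p of 5.5 and 7.28) at different positions, and so had Meis2 (22.0 and 8.56), named here after its values were seen.

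**Figure D4:**
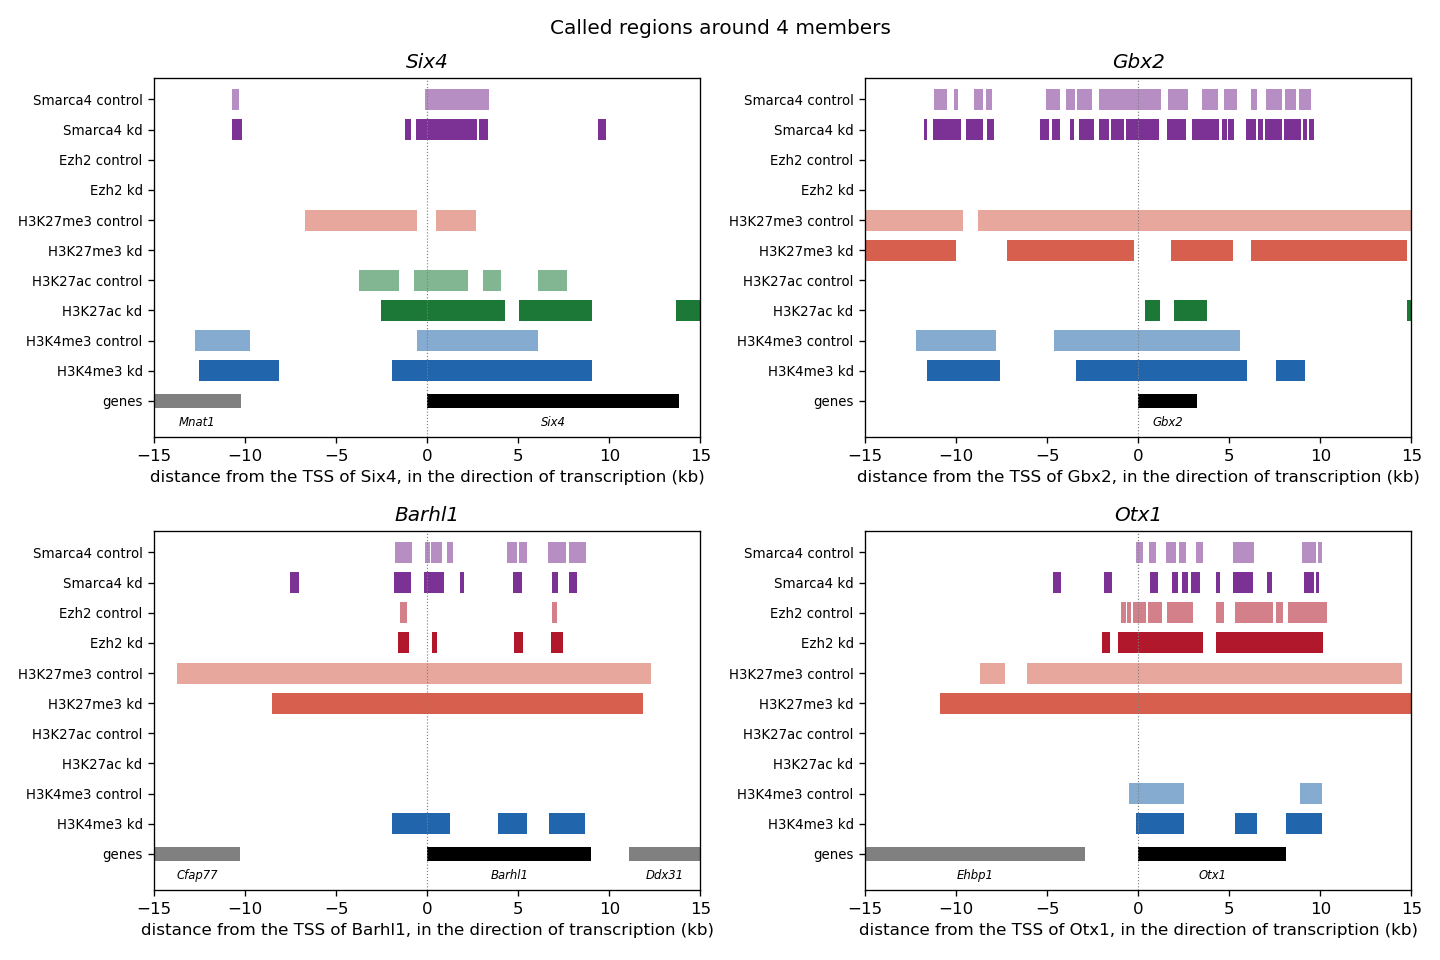
Called regions within 15 kb of the TSS (horizontal axis, kb in the direction of transcription) of Six4, Gbx2, Barhl1 and Otx1, with 1 row per antibody and condition, control pale and kd dark, the gene as a black bar and its protein-coding neighbours as grey bars. Six4 has 2 H3K27me3 islands in control and 0 after kd, Gbx2 has no Ezh2 peak and after kd an H3K27me3 gap over the start of the gene with 1 of the 2 H3K27ac islands on the gene in it, Barhl1 has H3K4me3 after kd alone, and Otx1, chosen after its values were seen, shows Ezh2 as 9 peaks in control and 3 after kd, of which 2 are wide.

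These 4 loci differed in how the antibodies were placed. At Gbx2 (chr1:89927956-89931179) H3K4me3 covered the whole region in both conditions, with -log10 p of 216 in control and a p-value listed as 0 after kd. H3K27me3 was split after kd into 2 islands that left the start of the gene free. The H3K27ac island of 800 bp lay in this gap, whereas that of 1800 bp lay within the next H3K27me3 island. At Otx1, a forebrain factor, Ezh2 covered 69.0% of the region in 8 peaks in control and 92.2% in 2 peaks after kd, while H3K27me3 covered it whole in both. At Barhl1, within 15 kb of the TSS, Ezh2 was called in 2 peaks in control (scores 69 and 97) and in 4 after kd (29 to 230), beside the new H3K4me3 islands and under an H3K27me3 island over its full length. The peak of score 97 ended 120 bp outside the region, and that of score 230 at the same place was wider and reached 7 bp into it, so that the coverage of this gene depends on the edge of its region.

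Ezh2 coverage differed widely between genes. Of the ventral neural tube genes, Nkx2-2 was covered by Ezh2 to 37.8% in control and 58.7% after kd and Nkx6-1 to 48.3% and 80.6%, both with H3K4me3 in both conditions. Their regions measured 17698 and 7858 bp. Of the dorsal neural tube and crest genes, Pax3 had 3.53% and 5.72% and Pax7 9.86% and 10.6% under Ezh2, in regions of 96868 and 97467 bp. Such shares depend on the length of the region, so these genes are not compared by them. Msx1, of jaw and teeth, had 47.8% and 66.4%, and Six3, of forebrain and eye, 54.3% and 63.8%. Lhx1, of the head organizer and kidney, had 55.5% and 70.4%, with H3K4me3 over 25.9% and 48.5%. In all of these the value after kd was the larger one for Ezh2.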

How the data were processed

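ChIP-seq of 81K1 mESC was analysed for 5 antibodies in control and Smarcb1-kd cells, with 1 library each. Conditions were taken from the labels. The authors trimmed reads (Trim Galore), aligned them to mm10 (Bowtie2), filtered them with SAMtools 1.9 to unique hits, and called regions separately for every library, with MACS2 for Smarca4 and Ezh2 (peaks) and SICER for the histone marks (islands). The methods name input as background, whereas the labels of these samples and the peak names point to IgG, so that the background is uncertain here. The score deposited with each peak is the authors' MACS2 score (at least 13.0 or 14.0 in these lists). For the islands, the authors' SICER p-value was deposited, at most 9.99e-06 for H3K27ac and 9.97e-11 for the other marks. A p-value listed as 0 has no finite -log10. Depth and numbers of reads are unknown here, and inputs were used by the authors alone.

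Overlaps of at least 1 bp with gene regions (GENCODE M21, whereas the methods name a later release) were computed in Python 3.11.15 with numpy 2.4.6. Islands were read with their last base included. The counting of overlaps was checked on simulated regions. Shares have 95% Wilson intervals. No replicate existed, so no test was run. The background of each count is the same count over all 21938 protein-coding genes. Repeat-masked regions have at least 50% lower-case bases in the reference. Genes named in the text are a fixed set of 1 or more per family, those called in 1 condition alone (at most 10 per antibody, the strongest first, Lhx5 also through H3K27ac), those with H3K27ac at the TSS, the 3 highest scores per list, those under the 3 widest H3K27me3 islands and the 5 largest H3K27me3 differences each way, besides the genes said to be named after their values were seen, and genes listed for completeness. Some genes are counted but not reported here by name. The genes, the lists and the alternatives were chosen with earlier results of these data known.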

Additional observations from a re-analysis of the deposited data

How the results depend on the processing

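The counts of genes called, called in 1 condition alone or carrying both promoter marks, and the share of bases under H3K27me3, were recomputed with stricter calls (peak scores from 50 upward, -log10 p from 10 upward for H3K27ac islands and from 20 upward for H3K4me3 and H3K27me3), with windows of 1 kb around the TSS, with lists of equal length, without repeat-masked regions and with an overlap of at least 200 bp, and for promoters with 2.5 kb windows or, added after seeing the data, any transcript start. Counts of genes with more or fewer bases were recomputed only with stricter calls, equal lengths and without repeat-masked regions. The share of bases was not recomputed with the longer overlap. Other shares, such as those of wholly covered genes and of peaks without overlap, were not recomputed. Of these values 109 stayed within 1.5 times of the reported count, or for the share of bases within its counting interval, and 20 did not. The stricter calls gave 2 genes with Smarca4 in control alone (0 as reported), 2 with H3K27ac in control (5) and 4 after kd (9), 3 with H3K27ac after kd alone (5), 1 with H3K4me3 in control alone (0) and 19 in kd alone (11). They put 62.6% of the bases under H3K27me3 in control and 54.3% after kd (64.9% and 56.2% as reported). Windows of 1 kb around the TSS gave 3 genes with Smarca4 in control alone and another 3 in kd alone, 1 with H3K27ac in control and 0 in control alone, and 97.9% and 95.9% of bases under H3K27me3. Lists of equal length gave 5 genes with Ezh2 after kd alone (3 as reported), 2 with H3K27ac in control alone (1), 5 with H3K27ac after kd and 2 after kd alone, and 63.4% of bases under H3K27me3 in control. Without repeat-masked regions 2 genes had H3K27ac in control alone. The counts of genes with more Ezh2 bases, fewer Smarca4 bases and fewer H3K27me3 bases after kd stayed within 1.5 times under every alternative run on them. Beyond the settings themselves, the cause of these moves was not tested.

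No paired analysis was possible because there was 1 library per antibody and condition and no result came from a test, and for the same reason leave-one-out values do not exist here. The H3K27ac counts rest on few, weak islands, and unknown depth limits every statement on a missing call.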

Other observations

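The antisense and other non-coding transcripts named after these genes were not among the 70. GENCODE lists 14 such entries with 12 symbols, among them Dlx6os1, Emx2os, Evx1os, Nkx2-2os, Otx2os1, Pax6os1 and Six3os1, chosen by their names. H3K27me3 was called on all 14 in both conditions, and Ezh2 and Smarca4 on 12 in both. H3K4me3 was called on 8 in control and 12 after kd, and H3K27ac on 3 and 4. Their regions overlap those of the protein-coding genes or lie beside them, so these are partly the same called regions. The same counts were not made over all non-coding genes, so no background can be given.

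The longest of them is Otx2os1, whose region of 202976 bp held 13 H3K27me3 islands in control and 8 after kd, 4 H3K27ac islands in control and 2 after kd, and 1 H3K4me3 island in each. Nkx2-2os, with 148599 bp, held 9 and 3 H3K27me3 islands, 2 and 1 H3K27ac islands and 1 and 4 H3K4me3 islands. Pax6os1 had no H3K4me3 island in control and 1 after kd. Dlx6os1 likewise had 0 and 1.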
